A study of Equus caballus with 20 samples.

Results

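Messenger RNA of 37 genes that make, regulate or move cholesterol and fatty acids was followed in the epithelium of the mare's oviduct. The genes were chosen by symbol from a fixed list, and all 37 were found among the 26740 features of the deposited table. The epithelium had been taken from Warmblood mares where the ampulla of the oviduct meets the isthmus, 4 days after ovulation. Each of the 4 groups held 5 biological replicates: pregnant mares, oviduct on the side of ovulation (ipsilateral, PI) or the other oviduct (contralateral, PC), and cyclic, not pregnant, mares, ipsilateral (CI) or contralateral (CC). Libraries are named by group and replicate number, as in PI1. The labels do not say whether a PI and a PC library of the same number came from the same mare.

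Cells build cholesterol from acetyl-CoA through mevalonate, squalene and lanosterol. The pathway is run by SREBP transcription factors, which SCAP escorts from the endoplasmic reticulum when sterol is scarce and which INSIG proteins hold back when it is plentiful. SREBP-2 (gene SREBF2) acts mainly on the sterol genes, SREBP-1 (SREBF1) mainly on the fatty acid genes, while liver X receptors, which sense oxidised sterols, switch on the exporters ABCA1 and ABCG1. Oviduct epithelium, made of multiciliated and secretory cells, surrounds the early embryo, which stays in the mare's oviduct during its first days.

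The values were read counts normalized by the authors with TMM, a method that brings libraries to a common scale with 1 factor each. Library depth, from the whole reads behind the values, ran from 2795168 to 6536856 in PI, 5522831 to 10015464 in PC, 3856941 to 10126484 in CI and 3407805 to 9849146 in CC. CI2, PC4 and CC2 were the deepest libraries, in that order, and PI1, CC4 and CI3 the shallowest. An unnamed feature, ENSECAG00000014226, took 27.8% of the reads of PI4, 15.4% of CI3 and 14.4% of PI1, against 0.310% to 9.75% in the other 17. Summed markers of multiciliated cells were high in all libraries (40778 to 69781 normalized counts). The epithelial genes EPCAM and CDH1, the 2 of 5 listed epithelial markers found, summed to 2624 to 6778. Markers of other cells were present too: stromal sums ran from 883 to 6887, macrophage sums from 549 to 2779 and smooth muscle sums from 587 to 2019. Summed secretory markers ran from 3795 to 8887, although OVGP1, the oviduct-specific glycoprotein, had 0 to 13 reads. Of 7 adipocyte markers in the table, ADIPOQ, PLIN1, FABP4, LEP and CIDEC had a median of 3 reads or fewer, and ADIPOQ never exceeded 3 reads in a library. The other 2 exceeded 1 CPM in at least 5 libraries, and the 7 together summed to 103 to 252 normalized counts. All 37 members passed the filter of more than 1 CPM (reads scaled to a common library size) in at least 5 libraries, which 14692 features did. In 26 members every library had over 30 reads, whereas HSD17B7 and FADS1 had 3 reads or fewer in some.

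Across the 20 libraries ACACA and MVK varied least, with a coefficient of variation of 12.1% and 12.2%, and HSD17B7 (58.9%), FADS1 (43.5%) and NPC2 (42.5%) most. No member differed between groups past the threshold. With limma's moderated test, adjusted by Benjamini and Hochberg's method over all 14692 features at 0.05, 0 of 37 members passed in each of the 5 comparisons made, as did 0% of all features. At an unadjusted p under 0.05 there were 2 members in PI against CI (3.5% of all features), 0 in PC against CC (4.55%), 1 in PI against PC (0.762%), 0 in CI against CC (0.286%) and 0 in the interaction of pregnancy and side (0.32%). The count-based tests edgeR and DESeq2, run on the recovered reads, also called 0 members in each comparison, and gave 2, 0, 1, 0 and 0 members at an unadjusted p under 0.05. Over all features edgeR gave 494, 838, 77, 50 and 39 in the same order and DESeq2 560, 950, 83, 55 and 49, of which 6 in PC against CC passed DESeq2's adjusted threshold. A p-value here sets a difference against the spread between the libraries of a group. The main limma model did not pair PI with PC by number, so its p-values between these sides include the spread between numbers. Levels of different genes are not compared because their transcript lengths were not used.

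**Figure D1:**
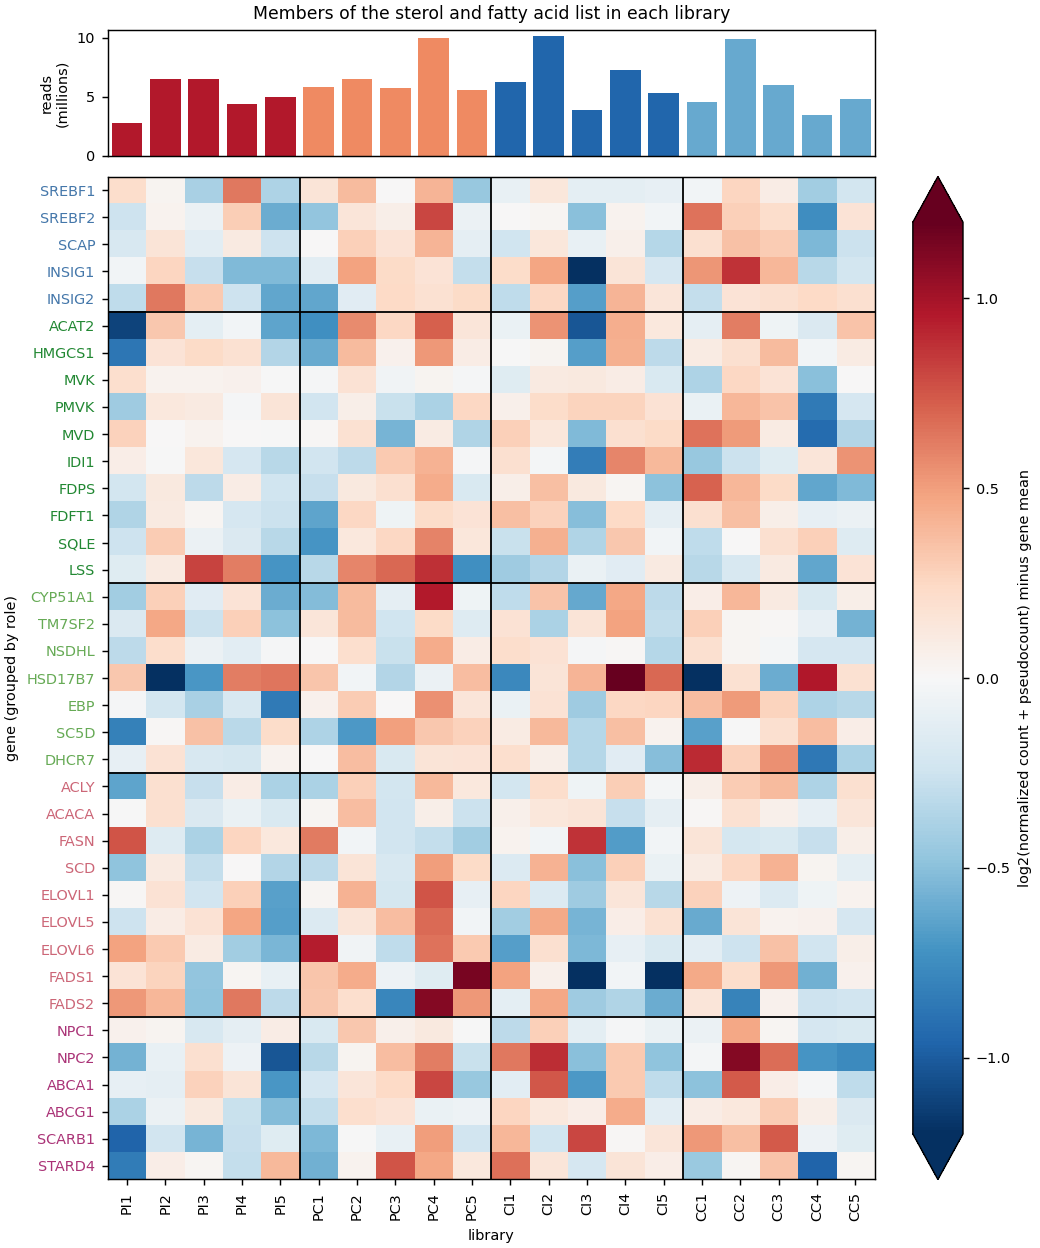
Reads per library (bars, top) and, for each of the 37 genes (rows, coloured by role) in each of the 20 libraries (columns, by group), the log2 normalized count minus the gene's mean over libraries; colours at the ends of the scale also hold values beyond it. PC4 is above the mean in most genes, and CC4, CI3, PI1, PI5 and PC1 are below it in most, while FASN is high in CI3 and PI1.

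Among the regulators, SREBF2 stood at 307, 376, 346, 448 and 241 normalized counts in PI1 to PI5 and at 262, 403, 383, 637 and 347 in PC1 to PC5. It read 366, 370.2, 258, 375 and 356 in CI1 to CI5 and 576, 447, 423, 217 and 409 in CC1 to CC5. The groups overlapped throughout, and pregnant and cyclic mares differed by −0.02 ± 0.24 (log2 difference ± SE, n = 5 in each group) on either side. INSIG1, itself a target of SREBP and so a readout of the pathway's activity, stood at 75.0, 92.4, 62.8, 52.0 and 52.0 in PI and at 70.0, 108, 90.6, 85.9 and 62.1 in PC. In the cyclic mares it read 89.8, 107, 30.6, 85.6 and 66.4 (CI) and 112, 142, 102, 60.1 and 65.5 (CC). Its lowest value, in CI3, rests on 17 reads. The pregnancy differences of INSIG1 were −0.10 ± 0.29 ipsilaterally and −0.16 ± 0.29 contralaterally. The ipsilateral value rests on single libraries: it was −0.38 without CI3, 0.04 without CI2 and 0.13 with log2 reads as a covariate. SREBF1 ranged from 765 (PC5) to 1627 (PI4), SCAP from 792 (CC4) to 1534 (PC4) and INSIG2 from 46.8 (CI3) to 119.6 (PI2), with no group apart from the others.

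Of the 10 enzymes that lead from acetyl-CoA to lanosterol, 7 were lower in PI than in CI and 6 higher in PC than in CC, by medians of −0.12 and 0.04. HMGCS1, which makes HMG-CoA at the start of the mevalonate pathway, stood at 110.1, 228, 239, 231 and 159 in PI, 133, 266, 211, 294 and 217 in PC, 204, 209, 128, 274 and 164 in CI, and 219, 234, 267, 199 and 218 in CC. Its lowest values lay in PI1, CI3 and PC1, libraries of 3 different groups. Pregnant and cyclic mares differed in HMGCS1 by −0.03 ± 0.24 ipsilaterally and −0.06 ± 0.24 contralaterally. SQLE, squalene epoxidase, the first oxygen-dependent step, stood at 119.5, 177, 136, 126 and 112 in PI, 86.1, 156, 169.7, 216 and 156 in PC, 118, 192, 109.9, 178 and 139 in CI, and 115, 143, 163, 174 and 128 in CC. No SQLE difference exceeded its SE (−0.18 ± 0.21 for PI against PC was the widest of the 4 between groups).

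ACAT2, the thiolase that joins acetyl-CoA units in the cytosol, had the second smallest p of the members between PI and PC. It stood at 49.2, 138, 101, 107 and 69.7 in PI, against 64.6, 164, 131, 182 and 122 in PC, so that the groups overlapped but each PI library was below the PC library of its number. The difference was −0.50 ± 0.31 (unadjusted p = 0.126, limma adjusted p = 0.999). With log2 reads as a covariate it was −0.14. With 1 library left out it ran from −0.73 (without PC1) to −0.30 (without PI1, the shallowest library). The cyclic groups read 103, 160.4, 52.2, 149.6 and 120.0 (CI) and 101, 169, 106, 96.9 and 140.2 (CC). PMVK, phosphomevalonate kinase, had the second smallest p between CI and CC, where it averaged 172 ± 9.83 and 148 ± 47.4 normalized counts (SD, n = 5). Its values were 156, 175, 180.1, 180.0 and 169 in CI and 141, 198, 190.0, 81.8 and 129.9 in CC, so that 2 CC libraries were above all CI libraries and 3 below. In the pregnant mares PMVK read 110.1, 163, 161, 148 and 167 (PI) and 127, 157, 124, 114 and 178 (PC). LSS, the cyclase that forms lanosterol, was the member of this branch with the widest pregnancy differences, 0.31 ± 0.30 ipsilaterally and 0.39 ± 0.30 contralaterally. It exceeded 200 normalized counts in PI3, PI4, PC2, PC3 and PC4 and in no cyclic library, but lay at 81.5 and 79.8 in PI5 and PC5. The enzymes from mevalonate to squalene, MVK, PMVK, MVD, IDI1, FDPS and FDFT1, differed by −0.21 to 0.12 between pregnant and cyclic mares over both sides, PMVK by −0.21 ± 0.20 ipsilaterally.

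The 7 enzymes from lanosterol to cholesterol were lower in PI than in PC without exception, by −0.54 to −0.11 with a median of −0.16. EBP, the sterol isomerase, was the 1 member at an unadjusted p under 0.05 in that comparison. It stood at 82.0, 71.0, 62.8, 72.1 and 44.9 normalized counts in PI and at 86.1, 104, 83.3, 123 and 92.0 in PC. The highest PI library was just below the lowest PC library, so the groups did not overlap, which held for 1 of 37 members and 0.136% of all features. EBP averaged 66.6 ± 13.9 in PI and 97.7 ± 16.3 in PC (SD, n = 5), a log2 difference of −0.54 ± 0.21 (unadjusted p = 0.0158, limma adjusted p = 0.999). In cyclic mares it read 78.2, 94.2, 61.2, 99.2 and 99.7 (CI) and 108, 119.6, 101, 63.5 and 65.5 (CC), with the sides overlapping and a difference of −0.05 ± 0.21. The interaction of pregnancy and side, −0.49 ± 0.29, had the smallest p of the members (unadjusted p = 0.109, limma adjusted p = 1.0), so a different side effect in pregnant and cyclic mares was not shown. With log2 reads as a covariate EBP differed by −0.42 between PI and PC, without PI5 by the same and without PI1 by −0.62.

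CYP51A1, the lanosterol demethylase, ranged from 95.5 (CI3) to 289.9 (PC4), and NSDHL, which helps remove other methyl groups, from 147 (CI5) to 255 (PC4). DHCR7, which completes cholesterol, spread most widely in CC, from 352 (CC4) to 1202 (CC1), and ranged from 555 to 723 in PI. TM7SF2 and SC5D, a reductase and a desaturase of the ring, ran from 133 (CC5) to 280.0 (CI4) and from 101 (PI1) to 253 (PC3). HSD17B7 had 0 to 30 reads a library, which allows no finer statement. In PC against CC all 7 enzymes were higher, by 0.01 to 0.29, each less than its SE.

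Fatty acid synthesis starts with ACLY, which cuts citrate to cytosolic acetyl-CoA, and ACACA, which makes malonyl-CoA. ACLY ranged from 598 (PI1) to 1219 (PC4) and ACACA from 395 (CI4) to 619 (PC2). FASN, the synthase that builds palmitate, stood at 6551, 3484, 2984, 4628 and 4221 normalized counts in PI, 5959.8, 3778, 3305, 3167 and 2901 in PC, 3993, 3793, 7063, 2433 and 3780.4 in CI, and 4315, 3342, 3422, 3201 and 4073 in CC. High values occurred in PI, PC and CI alike, and FASN differed by 0.09 ± 0.25 (PI against CI) and 0.02 ± 0.25 (PC against CC). SCD, the desaturase that makes oleate, stood at 234, 353, 268, 330.5 and 257 in PI, 264, 367, 287, 465 and 385 in PC, 294, 439, 231, 400.0 and 309.7 in CI, and 352, 389.9, 439.5, 336 and 302 in CC. PI had the lowest mean of SCD (289 ± 50.6) and CC the highest (364 ± 52.8; SD, n = 5), with overlapping ranges. PI was below PC in all 5 numbers, by −0.28 ± 0.19.

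The desaturases FADS1 and FADS2, which make long polyunsaturated fatty acids, had the widest pregnancy differences among the fatty acid genes, FADS1 ipsilaterally and FADS2 contralaterally. FADS2 stood at 110.1, 101, 53.5, 119 and 60.2 in PI and 95.8, 87.7, 42.7, 166 and 109.7 in PC. In cyclic mares it read 69.5, 106, 55.8, 58.4 and 49.3 (CI) and 84.3, 42.1, 78.7, 63.5 and 64.4 (CC). Number 3 was the lowest of PI and of PC, and the pregnancy differences were 0.36 ± 0.30 ipsilaterally and 0.49 ± 0.30 contralaterally (unadjusted p = 0.125, limma adjusted p = 1.0). The latter was 0.28 without PC4 and 0.75 without PC3. FADS1 was scarce, at 18.7, 20.4, 11.0, 16.8 and 15.4 in PI, 21.5, 23.6, 15.6, 14.6 and 39.9 in PC, 24.1, 17.3, 3.60, 16.001 and 5.36 in CI, and 23.7, 19.5, 25.0, 10.02 and 17.2 in CC. It had the smallest p of the members between CI and CC (−0.59 ± 0.36, unadjusted p = 0.12, limma adjusted p = 1.0), where CI3 and CI5 were low on 2 and 5 reads. Without CI3 the difference was −0.31. The elongases ELOVL1, ELOVL5 and ELOVL6 were higher in PC than in CC by 0.17 ± 0.21, 0.31 ± 0.24 and 0.35 ± 0.24.

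Cholesterol transport genes held the 2 members at an unadjusted p under 0.05 between PI and CI. SCARB1, the receptor that takes up cholesterol from high-density lipoprotein, stood at 28.1, 48.6, 38.2, 47.0 and 52.0 in PI and at 77.3, 48.3, 103, 58.4 and 64.3 in CI. The groups overlapped because CI2 lay below PI2 and PI5. PI averaged 42.8 ± 9.65 and CI 70.2 ± 21.0 (SD, n = 5), and SCARB1 was thus lower by a log2 difference of −0.66 ± 0.24 (unadjusted p = 0.012, limma adjusted p = 0.999). On the other side it read 38.8, 57.5, 54.1, 83.0 and 48.8 in PC and 84.3, 75.1, 97.9, 55.1 and 51.7 in CC, with a difference of −0.35 ± 0.24 (unadjusted p = 0.156, limma adjusted p = 1.0). In bulk tissue, fewer cells that express a gene and less RNA per cell cannot be told apart. Without PI1, PI4 and CI3 together the ipsilateral difference was −0.39 (unadjusted p = 0.158). Markers of other cells also differed between PI and CI: 8 of 8 stromal markers were lower (median −0.47), 6 of 6 T and NK cell markers and 9 of 9 multiciliated markers higher (0.73 and 0.24), and 5 of 7 macrophage markers lower (−0.07), none past the adjusted threshold. Their part in the SCARB1 and ABCG1 values was not tested.

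ABCG1, which exports cholesterol to high-density lipoprotein, stood at 218, 269, 308, 235 and 197 in PI, 233, 327, 317, 269 and 273 in PC, 339.9, 309, 301, 386 and 259 in CI, and 302, 309, 352, 297 and 251 in CC. PI averaged 245 ± 43.8 and CI 319 ± 47.4 (SD, n = 5), or −0.38 ± 0.15 on the log2 scale (unadjusted p = 0.017, limma adjusted p = 0.999). PI2 and PI3 lay within the CI range, and CI3 and CI5 within the PI range. ABCG1 differed by −0.09 ± 0.15 contralaterally, and its interaction was −0.29 ± 0.21 (unadjusted p = 0.18, limma adjusted p = 1.0). No member separated the PI from the CI libraries completely (0.592% of all features did), nor PC from CC (0.585%), nor CI from CC (0.0681%). ABCA1, which loads cholesterol onto apolipoprotein A-I, stood at 1603, 1593, 2083, 1914 and 1056 in PI, 1495, 1895, 2025, 2989 and 1256 in PC, 1573, 2885, 1066, 2134 and 1389 in CI, and 1224, 2867, 1818, 1703 and 1387 in CC. Its 3 highest values, 2989, 2885 and 2867, were those of PC4, CI2 and CC2, the deepest libraries, and pregnant and cyclic mares differed by −0.08 ± 0.28 and 0.10 ± 0.28.

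STARD4, a carrier of cholesterol within the cell, had the second smallest interaction p (−0.66 ± 0.43, unadjusted p = 0.138, limma adjusted p = 1.0). It stood at 9.37, 20.4, 19.5, 15.1 and 26.0 in PI, 11.8, 19.8, 34.3, 27.5 and 21.1 in PC, 31.9, 21.5, 16.2, 21.6 and 20.4 in CI, and 13.2, 19.5, 25.0, 8.35 and 19.5 in CC. The lowest 2, in CC4 and PI1, rest on 5 and 4 reads, and the 4 ranges overlap. NPC1 and NPC2, the pair that lets cholesterol out of lysosomes, differed in spread: NPC1 ran from 173 (CI1) to 298 (CC2), NPC2 from 94.5 (PI5) to 423 (CC2). NPC2 was lower in PI than in CI by −0.48 ± 0.35.

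**Figure D2:**
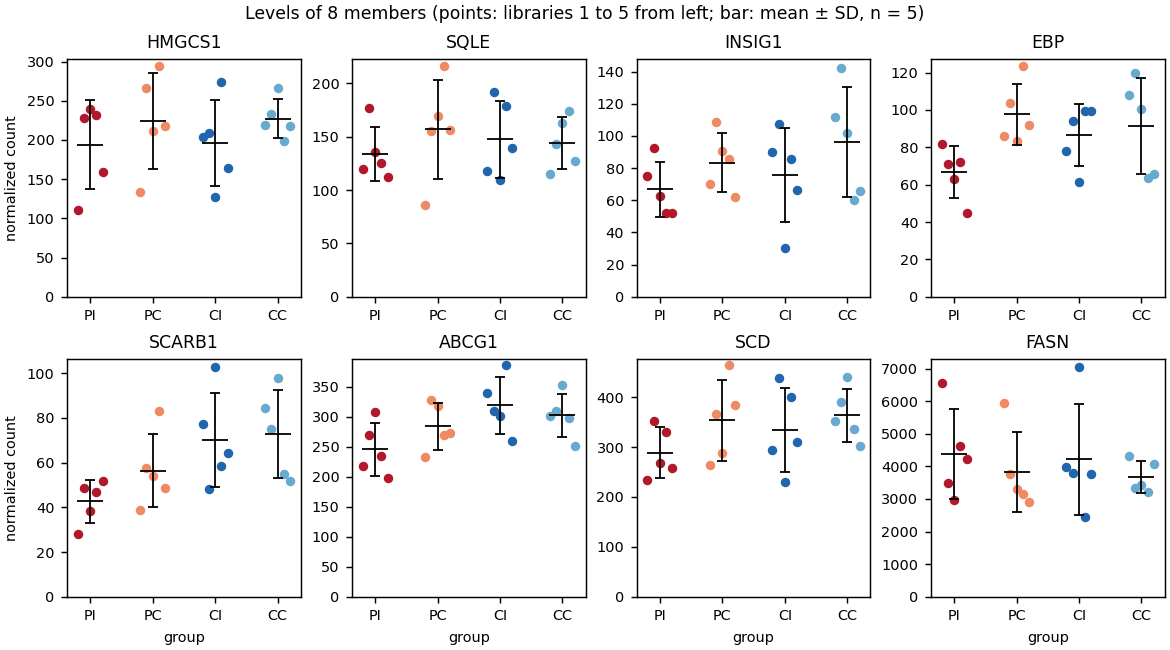
Normalized counts of 8 members by group (points are libraries 1 to 5 from left to right, bars the mean ± SD, n = 5, axes from 0). EBP is lower in each PI library (44.9 to 82.0) than in any PC library (83.3 to 123), SCARB1 is lowest on average in PI (42.8), and single libraries stand high for FASN in PI, PC and CI.

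The whole list was then counted by direction. In the oviduct beside the ovulating ovary 13 of 37 were higher and 24 lower in pregnant mares, with a median log2 difference of −0.06 (−0.01 over all features). On the other side 25 were higher and 12 lower, with a median of 0.06 (0.01 over all features). Between PC and CC 6 of 6 T and NK cell markers (median 1.00), 9 of 9 multiciliated markers (0.30) and 6 of 7 macrophage markers (0.19) were higher and 8 of 8 stromal markers lower (−0.41), and their part in the members' values was not tested. By role, the ipsilateral medians were −0.01 for regulators, −0.12 for mevalonate and squalene enzymes, −0.07 for late sterol enzymes, 0.02 for fatty acid genes and −0.34 for transport genes. Contralaterally they were −0.02, 0.04, 0.12, 0.17 and 0.04 in the same order. The ipsilateral median of the transport genes was −0.11 with log2 reads as a covariate, and the contralateral one of the fatty acid genes −0.04 with library weights. The direction of both list medians turned with log2 reads as a covariate (0.02 ipsilaterally and −0.08 contralaterally). Contralaterally it also turned with library weights (−0.04), with scaling to total reads (−0.01) and without PC4 (−0.03), and ipsilaterally it turned without CI2 (0.01). The ipsilateral median was −0.14 without PI1, PI4 and CI3, and the contralateral one 0.003 without CC4.

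Between the sides of cyclic mares, 16 members were higher and 21 lower in CI than in CC, with a median of −0.02 (0.01 over all features). In pregnant mares 33 of 37 members were lower on the ipsilateral side and MVK, PMVK, MVD and FASN higher, with a median of −0.18. Over all features 55.4% were lower, with a median of −0.03. All 5 regulators, all 7 late sterol enzymes and all 6 transport genes were lower, as were 8 of 9 fatty acid genes and 7 of 10 mevalonate and squalene enzymes. The list's interaction of pregnancy and side had a median of −0.13 (−0.04 over all features), with 28 members and 56.6% of all features below 0. With log2 reads as a covariate it turned to 0.07, with 24 members above 0. PI against PC, PI against CI and the interaction share the PI libraries, so they are not separate evidence on EBP, SCARB1 or ABCG1.

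PI and PC libraries of one number deviated together from their group means, so the differences were also read number by number. In SCAP, ACAT2, EBP, DHCR7, ACLY, SCD, ELOVL1, ELOVL5, NPC2 and ABCG1, 10 members in all, PI was below PC in all 5 numbers, which held for 7.57% of all features; the opposite held for 0 members and 4.88% of all features. The size varied between numbers. The median over members was −0.03 in number 1, −0.13 in number 2, −0.10 in number 3, −0.42 in number 4 and −0.32 in number 5, and so widest in numbers 4 and 5. Over all features it was −0.03, −0.003, −0.01, −0.07 and −0.04 in the same order. Members lower in PI were 21 of 37 in number 1 (54.7% of all features) and 30 in number 4 (56.2%). EBP differed by −0.07, −0.53, −0.39, −0.75 and −0.99 in numbers 1 to 5, and NPC2 by −0.24, −0.12, −0.18, −0.67 and −0.76. In the fit with the replicate number as a block, limma gave EBP an unadjusted p of 0.0202 and ACAT2 one of 0.0178 (adjusted p = 0.822 for both), and again 0 members passed. The SE of ACAT2 was 0.19 with the block and 0.31 without it, and that of EBP 0.21 in both. The share of all features at an unadjusted p under 0.05 in the block fit is not given here.

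Depth and some marker lists differed along with the side, though 0 markers passed the adjusted threshold. PC4, with the most reads of PC and the highest value of 15 members over all 20 libraries, faced PI4 with 4415169 reads. Without PC4 the median of the members was −0.07, with 30 of 37 lower, and with log2 reads as a covariate it was −0.04, with 26 lower. All 7 macrophage markers kept were lower in PI than in PC, with a median of −0.25 (MARCO, the eighth, was near 0 reads). Lower too were 4 of 5 endothelial markers (−0.24), 5 of 6 T and NK cell markers (−0.17) and 7 of 9 multiciliated markers (−0.08), beside 55.4% of all features. Other lists were mixed: 4 of 8 stromal markers (median −0.03), 4 of 7 secretory markers (−0.03) and 4 of 6 smooth muscle markers (−0.08) were lower. Of 5 ovarian steroidogenic markers 3 were higher (0.26), and of 2 adipocyte markers 1 was (−0.09). The summed macrophage markers ran from 549 to 2026 in PI and from 843 to 2779 in PC. The epithelial genes EPCAM and CDH1 were lower too, by a median of −0.31. The part of these in the side difference was not tested.

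**Figure D3:**
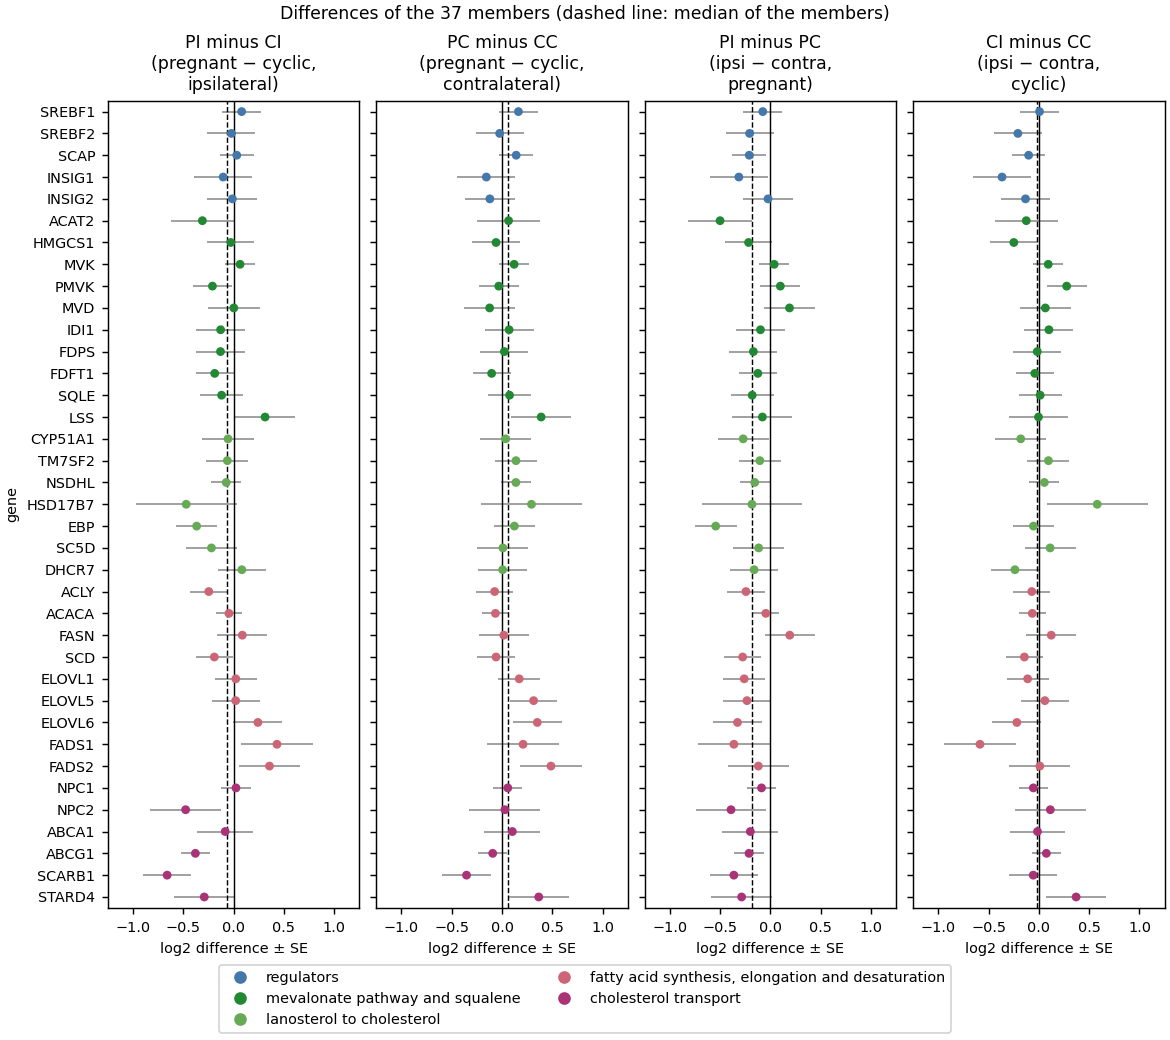
Log2 difference with its SE (x axis) for each of the 37 genes (y axis, coloured by role) in the 4 comparisons between groups, with the members' median as a dashed line. In PI against PC 33 of 37 points lie left of 0, with EBP farthest left; in the other 3 panels the medians lie between −0.06 and 0.06.

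**Figure D4:**
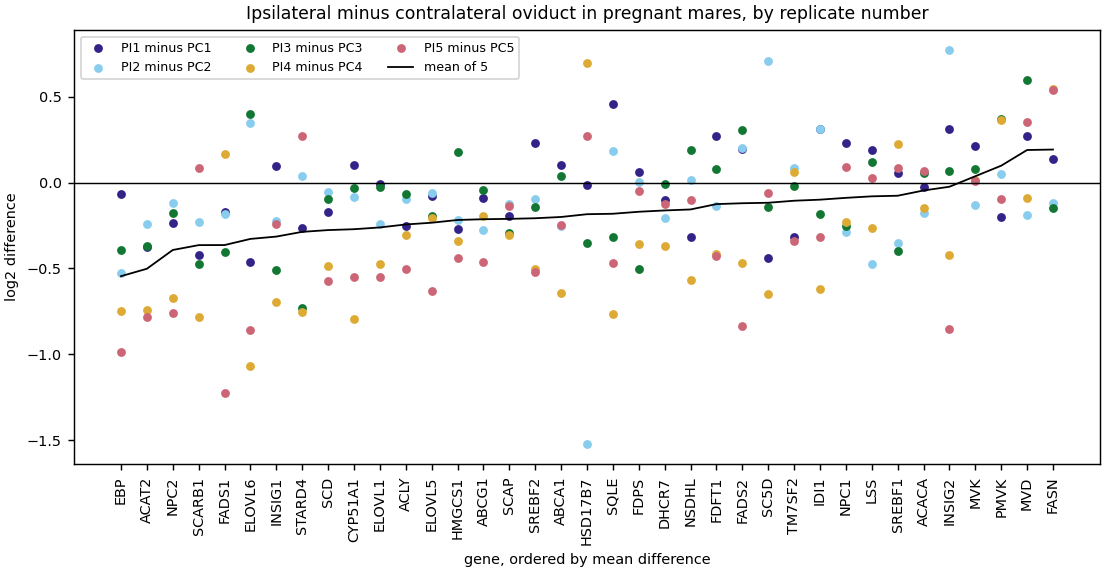
Log2 difference of PI minus PC for each replicate number (coloured points) and each of the 37 genes (x axis, ordered by their mean difference, black line). Number 4 or number 5 is the lowest point in 27 of 37 genes, and EBP, ACAT2 and NPC2 are below 0 in all 5 numbers.

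Members were also compared between the deepest and the shallowest libraries. In 18 of 37 members each of the 3 deepest libraries was above each of the 3 shallowest after normalization, against 24.7% of all features. In 1 member, HSD17B7, each was below, against 20.4%. The 18 were SREBF2, SCAP, INSIG1, ACAT2, HMGCS1, FDPS, FDFT1, CYP51A1, NSDHL, EBP, DHCR7, ACLY, SCD, ELOVL5, NPC1, NPC2, ABCA1 and STARD4. The median log2 difference between deepest and shallowest libraries was 0.50 over members and 0.14 over all features. The lowest value lay in CC4 for 8 members, in CI3 for 6 and in PI1 for 5, but also in PI5, which is not among the 3 shallowest, for 6. The highest lay in PC4 for 15 and in CC2 for 5, but in CI2, the deepest library, for 0. Each of these sets of libraries comes from 3 groups, and depth was not evenly shared between groups: PI had no library above 6536856 reads. Whether depth or another property of these libraries goes with the levels was not tested.

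FASN had a pattern of its own over the libraries. Its values in CI3 (7063), PI1 (6551), PC1 (5959.8) and PI4 (4628) were the highest of all 20 libraries, the other 16 running from 2433 to 4315. These were also the 4 libraries in which ENSECAG00000014226 took its largest shares of reads. FASN was the 1 member of 37 with this pattern, which 0.742% of all features showed. The cut at 4 libraries was not set independently of FASN's values, so this share is no test of it. PC1, with a 9.75% share of that feature, was close to PI2 with 8.13%. If PC1 were counted with the others, FASN would not show the pattern, because PC1 was above PI4. PI4, with the largest share of that feature, was the lowest of the 4 in FASN. In CI3, FASN was at its highest while INSIG1 (30.6), INSIG2 (46.8), IDI1 (36.0), CYP51A1 (95.5), SCD (231) and FADS1 (3.60) were at their lowest. MLXIPL, the carbohydrate-sensing transcription factor that also acts on FASN, is no member and was named after its values were seen. It was highest in PC1 (1042), CI3 (964), PI1 (923) and CC4 (878), against 258 to 663 in the other 16, but FASN was at 3201 in CC4.

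**Figure D5:**
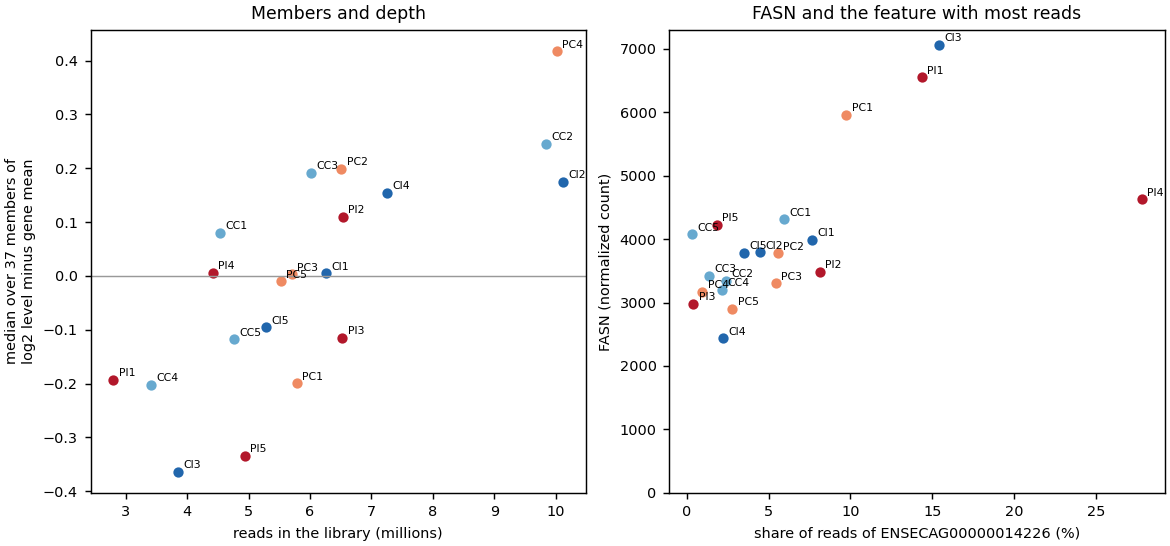
Left, the median over 37 members of the log2 level minus the gene's mean (y axis) against reads (x axis) for the 20 libraries, coloured by group; right, FASN in normalized counts (y axis, from 0) against the percentage of reads of ENSECAG00000014226 (x axis). The 3 deepest libraries lie above 0 and the 3 shallowest below in the left plot, and CI3, PI1, PC1 and PI4 hold the highest FASN values in the right plot.

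Other genes of sterol and fatty acid metabolism were examined in the same way. Of 59 listed from textbook knowledge, 56 were in the table and 51 passed the filter, and 0 of the 51 passed limma's adjusted threshold in each comparison. In PI against PC 40 of 51 were lower, with a median of −0.16 (55.4% and −0.03 over all features). Their medians were −0.09 in PI against CI and −0.01 in PC against CC. Between the 3 deepest and the 3 shallowest libraries they differed by a median of 0.71, against 0.50 over members and 0.14 over all features. The part of depth in their side difference was not tested. ACSS2, which makes acetyl-CoA from acetate, had the smallest p of this list in PI against CI (−0.55 ± 0.27), in PI against PC (−0.52 ± 0.27) and in the interaction (−0.57 ± 0.38), with adjusted p = 0.999, 0.999 and 1.0 by limma. It averaged 118 ± 31.9 in PI, 170.2 ± 38.7 in PC, 177 ± 55.1 in CI and 178 ± 82.0 in CC (SD, n = 5). The fatty acid receptor CD36 had the smallest p in PC against CC (−1.13 ± 0.54, limma adjusted p = 1.0), on 1 to 9 reads in PC and 5 to 40 in CC. OXSM, a mitochondrial fatty acid synthase, had it in CI against CC (−0.90 ± 0.42, limma adjusted p = 1.0), on 0 to 13 and 3 to 15 reads.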

How the data were processed

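Poly-A or ribosome-depleted RNA (the labels name both) of 20 libraries had been sequenced, and CASAVA 1.8 is the tool in the submitters' processing notes. Which aligner, counter, genome build and annotation were used is not given in the sources used here, so no coordinates or sequences are printed. The authors deposited TMM-normalized counts, a signal per gene. Dividing each column by its smallest value above 0 gave whole reads for 100% of values (tolerance 0.01 reads).

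Features above 1 CPM in at least 5 libraries were kept. Tests used log2(value + 0.5 CPM, equal to 3.03 normalized counts), which understates the change of low genes, in 1 limma (3.58.1, R 4.3.3) model of 4 group means, with trend and robust moderation, 2-sided, with Benjamini-Hochberg adjustment. Members got counts and medians, not a test as a list. The members, role groups and lists were chosen with earlier results of these data known. Values are printed for members with the 2 smallest p of each comparison and for SREBF2, INSIG1, HMGCS1, SQLE, FASN, SCD and ABCA1, and for the smallest p among other pathway genes; further genes illustrate their role group.

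Replicate numbers were checked by correlating deviations from group means over features. For PI and PC all 5 same-numbered pairs correlated (0.53 to 0.70), so the numbers were taken as pairing them; this comes from the data, not the labels. For CI and CC 3 of 5 exceeded 0.1 (−0.04 to 0.68). Between pregnant and cyclic groups 2 of 5 did for PI and CI (−0.15 to 0.59) and 2 for PC and CC (−0.40 to 0.49). Number 2 was the highest in both, and why it correlated was not tested. Alternatives were other pseudocounts, filters and scalings, edgeR (4.0.16) and DESeq2 (1.42.0) on recovered reads, library weights, a replicate block, depth as a covariate, and libraries left out. A count of 0 reads still allows up to 3 reads, or 1.75 to 7.03 normalized counts, counting error only.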

Additional observations from a re-analysis of the deposited data

Results flagged for a closer look

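A single library stood far from the other 4 of its group in 8 of the 148 combinations of member and group examined, where chance alone gives about 1 in 20 (7.4). SREBF1 was high in CI2, at 1152 normalized counts against 965 to 985 in the other CI libraries. SREBF2 was low in CI3, at 258 against 356 to 375, and MVD was low there too, at 36.0 against 59.0 to 65.7. INSIG2 was low in CC1, at 61.9 against 85.4 to 90.2. In PI1 MVK read 91.4 against 79.1 to 82.2 and MVD 65.6 against 53.2 to 55.2. FASN was high in PC1, at 5959.8 against 2901 to 3778. NPC1 was high in CC2, at 298 against 187 to 219. CI3 and PI1 are among the 3 shallowest libraries, and the cause was not tested.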

How the results depend on the processing

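Over 34 alternatives limma, edgeR or DESeq2 called 0 of the 37 members in each comparison. Counts over all features stayed at 0 except in PC against CC, where 1 feature passed with scaling to total reads, 1 with log2 reads as a covariate, 6 with DESeq2 and 6 with library weights; the cause was not tested. With 1 library left out in turn, 0 passed in each comparison. Member medians then ran from −0.167 to 0.007 in PI against CI, −0.025 to 0.131 in PC against CC, −0.255 to −0.072 in PI against PC (the latter without PC4), −0.107 to 0.031 in CI against CC and −0.213 to −0.028 in the interaction. The median of PI against PC kept its sign in all alternatives (−0.04 at the nearest to 0, with log2 reads), while that of the interaction turned to 0.07 with log2 reads. Some alternatives could not move the PI against PC median from −0.18 and are no check of it. These were leaving out a CI or CC library, fitting only the 2 groups compared, the replicate block and dropping the filter. Of 6238 recomputed member differences 433 had the other sign, none of them called. The 6238 include differences that such alternatives cannot move, so this share does not measure how stable the directions are. The replicate block left medians as they were and called 0 features in each comparison; for the pregnancy comparisons the labels share only a number. For CI against CC 6 of 10 libraries correlated best with their own number, a hint from the data that some are paired. Leaving out PI1, CI3 and CC4, and the list without FASN (PI against PC −0.15 and −0.19 respectively), were added after seeing the data. A filter above 5 CPM removed HSD17B7, FADS1 and STARD4. Besides these, the fewest reads in a library were 12 for SCARB1, 16 for MVD and 17 for INSIG1.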
